A study of Homo sapiens with 8 samples.

Results

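The extracellular matrix, integrin and epithelial-mesenchymal transition (EMT) genes described here are 49 of the 60291 genes counted in the study. They were chosen by name, as genes of matrix proteins, matrix receptors, cell-state markers, TGF-beta signalling and matrix-remodelling enzymes, and the rule uses no measured value, although earlier results of these data were known when the list was made. The names were matched to the gene identifiers of the count files, in which CYR61 and CTGF are the older names of CCN1 and CCN2. All 49 genes had enough reads to be tested, among 17811 genes tested in all. MMP1 was the exception among them in reaching 10 reads in only 1 library, one of the NFE2L2 siRNA group.

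The cells were A549, an established human lung adenocarcinoma line, and NFE2L2 encodes NRF2, a transcription factor of the response to oxidative stress. KEAP1, which normally marks NRF2 for degradation, is mutated and inactive in this line, and the control and mock libraries share that background. In each transfection 250000 cells received Lipofectamine RNAiMAX for 48 h, with 5 nmol of one of 3 duplexes against NFE2L2 (3 libraries, 1 per duplex), with 5 nmol of one of 2 control duplexes (4 libraries, 2 per duplex), or with no siRNA (1 mock library). The duplex and the transfection cannot be told apart within the NFE2L2 group, and the 2 libraries of a control duplex share that duplex, so that p-values measure the spread between these transfections of 1 cell line.

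Cells of an epithelium rest on a basement membrane of laminins and collagen IV, which they grip through integrins, receptors made of one alpha and one beta chain. In EMT, factors such as SNAI1, SNAI2, TWIST1, ZEB1 and ZEB2 repress the adhesion protein E-cadherin (CDH1), while vimentin, N-cadherin and fibronectin rise. TGF-beta is the best known inducer of this programme and of collagen, thrombospondin and SPARC expression in many cell types.

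Strand-specific total RNA was sequenced, and 35525141 to 41645410 reads per library were counted on genes. Levels are given as CPM, the reads per 1000000 gene counts after TMM normalization. The target NFE2L2 stood at 32.9, 52.0 and 29.7 CPM with the 3 NFE2L2 duplexes and at 107 to 117 CPM in the controls (log2FC, the log2 of the fold change of NFE2L2 siRNA over control siRNA, −1.55, with a standard error, SE, of 0.178 and adjusted p = 0.000994 by the edgeR quasi-likelihood test), and siRNA-2 left the highest level of it. The epithelial keratin genes KRT8 and KRT18 had 111143 to 267462 reads in every library. All 5 epithelial markers had positive log2FC values, with a median of 0.74, and none passed the test. Among them KRT19 had a log2FC of 0.88 (adjusted p = 0.02) without overlap. Leukocyte genes summed to at most 0.332 CPM. The summed level of 7 fibroblast genes was 7.05 to 8.94 CPM with NFE2L2 siRNA and 3.30 to 4.43 CPM in the controls. Of these 7 genes, PDGFRA passed the test (41 to 48 reads against 7 to 14, log2FC 1.76, adjusted p = 0.00382), THY1 and COL3A1 had log2FC values of 1.09 and 1.00 without overlap, and no library held more than 3 reads of DCN or COL1A2. The sum of 3 endothelial genes was 0.643 to 1.10 against 0.215 to 0.332 CPM, and among them CDH5 passed the test (18 to 39 reads against 4 to 8, log2FC 1.99, adjusted p = 0.00820), though it was tested only through its reads in the NFE2L2 group. The part of these markers in the results for matrix genes was not tested.

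6 of the matrix and receptor genes increased and 1 EMT factor decreased when NFE2L2 was silenced. COL1A1, COL5A1, SPARC and THBS1 rose by 2.11-fold to 2.82-fold, ITGA5 and COL4A2 rose by 1.56-fold and 1.44-fold, and SNAI1 fell to 0.435 of its control level. These 7 of 49 genes (14.3%) passed an adjusted p of 0.01 over all tested genes, against 2.76% of all tested genes in either direction, 1.39% increased and 1.36% reduced. The median log2FC was 0.38 over the 49 genes and 0.01 over all tested genes. Positive values were found for 39 of the 49 genes and for 9129 of the 17811 tested. At an unadjusted p under 0.05 stood 28 of the 49 genes and 4457 of the 17811 tested. Whether changes come from the share of cells in a state or from the RNA per cell cannot be told apart in bulk RNA. None of these 7 calls was made when either control duplex served alone as the reference or when the libraries of a duplex were summed, although the direction of each stayed the same in all of these fits.

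**Figure D1:**
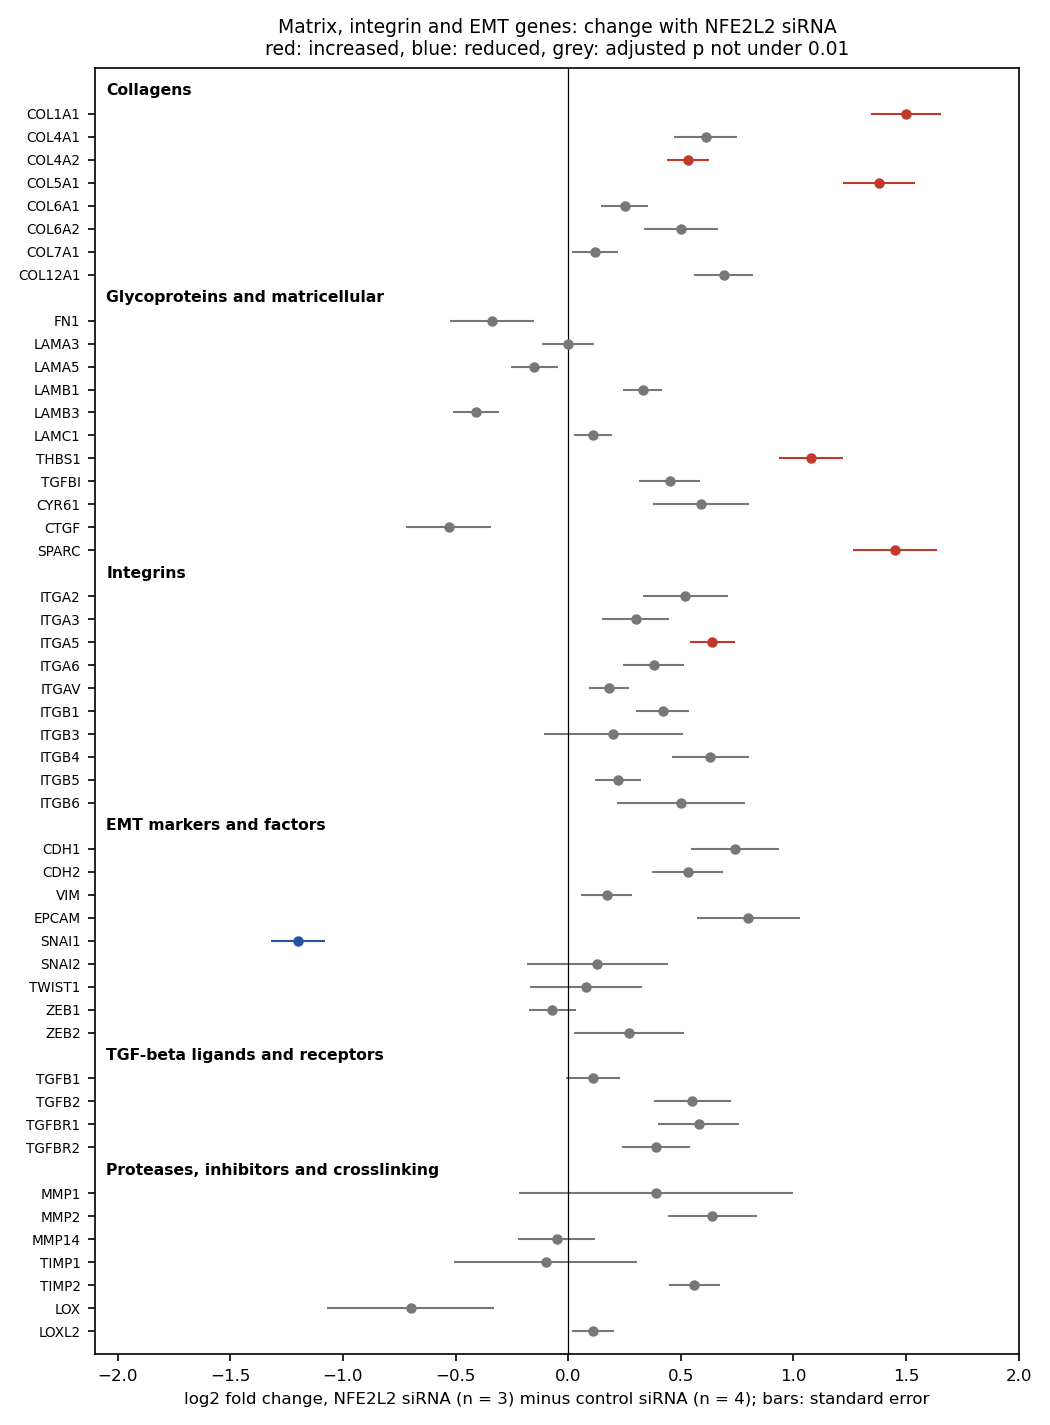
Log2FC of each of the 49 genes (x axis), NFE2L2 siRNA (3 libraries) minus control siRNA (4 libraries), with its SE as a bar, in blocks by role. The 8 collagen genes and the 10 integrin genes all lie to the right of 0, and SNAI1 at −1.20 is the blue point to the left.

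The collagen genes encode the chains of fibrillar (COL1A1, COL5A1), basement membrane (COL4A1, COL4A2), microfibrillar (COL6A1, COL6A2), anchoring (COL7A1) and fibril-associated (COL12A1) collagens. All 8 values were positive, with a median log2FC of 0.57, and 3 genes passed the test. COL1A1, the alpha-1 chain of collagen I (chromosome 17 from 48261462 to 48278993, minus strand, GRCh37), was measured at 9.25, 13.7 and 13.4 CPM with the NFE2L2 duplexes and at 4.54, 4.36, 4.30 and 3.96 CPM in the controls. Every NFE2L2 library lay above every control library, and the log2FC was 1.50 (SE 0.154, adjusted p = 0.000493). Its partner chain COL1A2, with at most 3 reads in a library, was not tested. COL5A1, a chain of the collagen V that nucleates collagen fibrils (chromosome 9 from 137533649 to 137736689, plus strand), stood at 190, 279 and 302 CPM against 84.6, 93.1, 111 and 108 CPM. The groups did not overlap, siRNA-1 gave the smallest rise for both genes, and COL5A1 had a log2FC of 1.38 (SE 0.161, adjusted p = 0.00107). COL1A1, COL5A1 and SNAI1 kept their calls with each of the 7 libraries left out in turn.

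COL4A1 and COL4A2, the chains of the main collagen IV of basement membranes, lie head to head on chromosome 13 and share a promoter. The promoter sequence of COL4A2 is shown because it also holds the start of its partner. In the RefSeq annotation of GRCh38.p14 the 2 start sites are 127 bases apart, at 110307157 for COL4A1 (minus strand) and 110307284 for COL4A2 (plus strand), and their promoter windows, from 250 bases before to 50 after each start, share 226 bases. Capitals mark the 128 bases from one start site to the other, both included.
COL4A2 promoter, chr13:110307034-110307333, plus strand, GRCh38.p14: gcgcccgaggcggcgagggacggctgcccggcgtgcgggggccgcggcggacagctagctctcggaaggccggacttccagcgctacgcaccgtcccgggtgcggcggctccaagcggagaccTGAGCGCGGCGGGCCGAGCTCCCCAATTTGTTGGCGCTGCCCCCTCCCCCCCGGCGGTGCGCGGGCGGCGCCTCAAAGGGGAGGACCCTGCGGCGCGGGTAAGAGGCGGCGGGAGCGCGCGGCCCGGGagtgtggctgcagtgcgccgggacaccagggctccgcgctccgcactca
This window has 77.7% G and C, against a median of 58.7% over all promoters of the table. COL4A2 (chromosome 13 from 110958159 to 111165556, plus strand, GRCh37) stood at 313, 370 and 383 CPM with NFE2L2 siRNA and at 235, 245, 253 and 251 CPM in the controls. COL4A1 (chromosome 13 from 110801310 to 110959504, minus strand) stood at 232, 284 and 179 CPM against 143, 160, 153 and 152 CPM. Neither gene had overlapping groups, and the duplex with the highest value was siRNA-3 for COL4A2 and siRNA-2 for COL4A1. The log2FC was 0.53 (SE 0.0935, adjusted p = 0.00897) for COL4A2 and 0.61 (SE 0.139, adjusted p = 0.0268) for COL4A1, so that only the COL4A2 value passed the threshold. The COL4A2 call was made in 1 of 7 fits with a library left out and was lost when each control duplex formed its own group (adjusted p = 0.0131). The annotated spans of the 2 genes overlap at their starts on opposite strands, and the reads were counted by strand.

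The other collagen genes did not pass the test. COL12A1 had 30.7, 41.3 and 34.6 CPM against 18.9 to 24.9 CPM in the controls (log2FC 0.69, SE 0.132, adjusted p = 0.0125). COL6A1 and COL6A2 had log2FC values of 0.25 and 0.50, and in both every NFE2L2 library lay above the controls. COL7A1, the most abundant collagen per length at a control level of 39.7 ± 4.35 CPM per kilobase of exon (SD, n = 4), had a log2FC of 0.12 with overlapping groups.

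Of the 11 glycoprotein and matricellular genes, 2 increased, and the values of the rest went both ways (6 positive and 5 negative in all, median log2FC 0.11). THBS1 encodes thrombospondin 1, a matricellular protein that can activate latent TGF-beta (chromosome 15 from 39873280 to 39891667, plus strand). It stood at 181, 252 and 202 CPM with NFE2L2 siRNA and at 86.5, 89.7, 116 and 109 CPM in the controls. The groups did not overlap, control duplex 1 gave the lower control values, and the log2FC was 1.08 (SE 0.142, adjusted p = 0.00207). SPARC, a collagen-binding matricellular protein (chromosome 5 from 151040657 to 151066536, minus strand), stood at 46.3, 26.0 and 47.0 CPM against 14.2, 15.3, 14.4 and 14.5 CPM. The 4 controls lay close together whereas siRNA-2 gave a smaller rise than the other duplexes, and the log2FC was 1.45 (SE 0.186, adjusted p = 0.00184). The calls of THBS1 and SPARC were made in 6 and 4 of the 7 fits with a library left out.

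The laminin values went both ways, and none passed the test. LAMB1, a beta chain of the widely expressed laminins, had a log2FC of 0.33 (adjusted p = 0.0506) and LAMB3, the beta chain of the epithelial anchoring laminin 332, one of −0.41 (SE 0.103, adjusted p = 0.0372). LAMB3 stood at 33.1, 28.1 and 33.0 CPM with NFE2L2 siRNA and at 43.3, 38.0, 43.3 and 42.8 CPM in the controls, and it was, with SNAI1, one of the 2 genes whose NFE2L2 libraries all lay below the controls. LAMA3, LAMA5 and LAMC1 had log2FC values from −0.15 to 0.11. CYR61 and CTGF, matricellular genes often read as targets of the YAP coactivator, had values of opposite sign (0.59, SE 0.214, and −0.53, SE 0.189), and neither passed the test. TGFBI, a secreted adhesion protein, stood at 2220, 2299 and 3208 CPM against 1763 to 1999 CPM (log2FC 0.45, adjusted p = 0.0707).

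All 10 integrin genes had positive log2FC values, from 0.18 to 0.64 with a median of 0.40, and 1 of them passed the test. Of 19 other integrin and adhesion genes tested, part of a wider list described below, 13 had positive and 6 negative values. ITGA5, the alpha chain of the fibronectin receptor (chromosome 12 from 54789045 to 54813050, minus strand), stood at 96.2, 120 and 113 CPM with NFE2L2 siRNA and at 75.3, 72.9, 66.3 and 67.7 CPM in the controls. Every NFE2L2 library lay above every control, and the log2FC was 0.64 (SE 0.101, adjusted p = 0.00527); the call was made in 2 of the 7 fits with a library left out. The ITGB1 chain, shared by most matrix-binding integrins, stood at 2567, 2033 and 2864 CPM against 1757 to 1910 CPM (log2FC 0.42, SE 0.118), which did not pass the threshold. The laminin receptor chains ITGA6 and ITGB4 had log2FC values of 0.38 and 0.63, and the collagen receptor chain ITGA2 one of 0.52. ITGAV and its partners ITGB3, ITGB5 and ITGB6, which bind latent TGF-beta among other ligands, had values of 0.18, 0.20, 0.22 and 0.50. The 10 integrin values also stayed positive with DESeq2, with either scaling alternative and against each control duplex, and 9 of 10 were positive without siRNA-1.

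**Figure D2:**
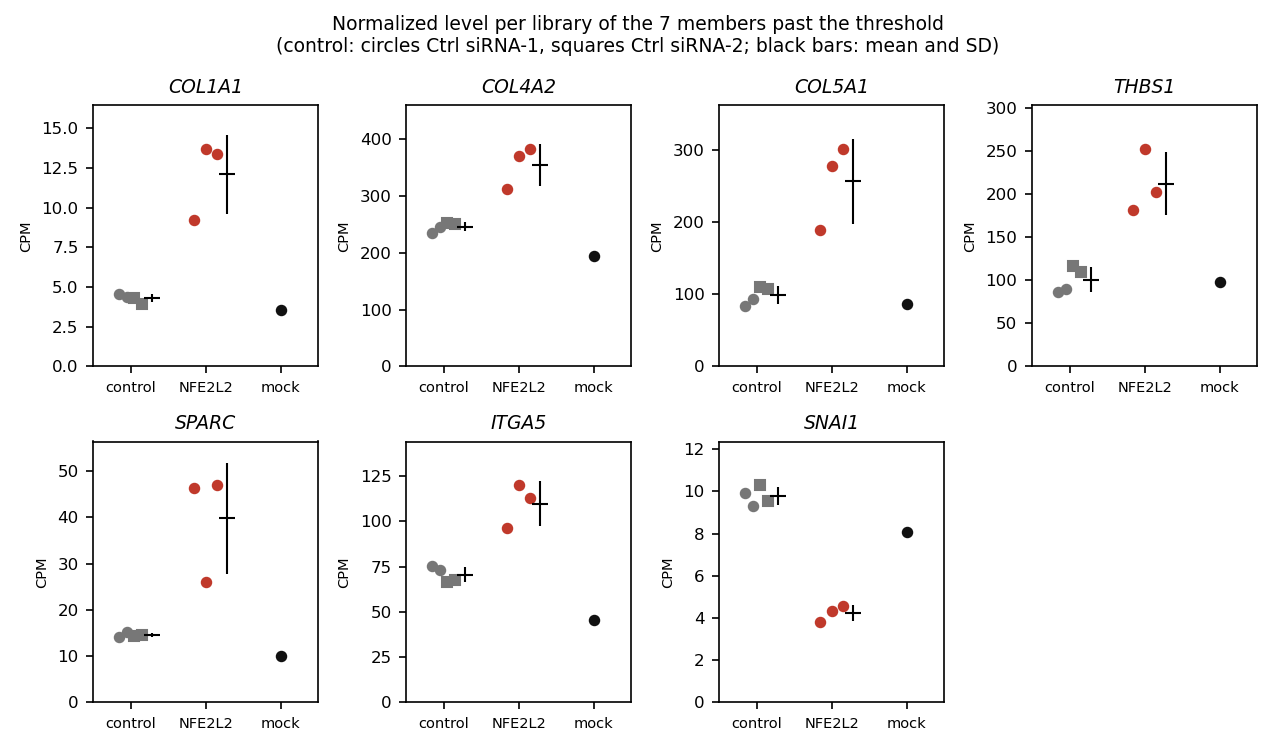
CPM (y axis, from 0) in each library of the 7 genes past the threshold, for the 4 control libraries (circles duplex 1, squares duplex 2), the 3 NFE2L2 siRNA libraries and the mock library, with mean and SD as black bars. In all 7 genes the NFE2L2 and control points are apart, for example 9.25 to 13.7 against 3.96 to 4.54 CPM for COL1A1 and 3.80 to 4.56 against 9.31 to 10.3 CPM for SNAI1.

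The EMT markers did not shift in one direction. Among these 9 genes SNAI1 was the one that passed the test. SNAI1 encodes Snail, a zinc-finger repressor of CDH1 and inducer of EMT (chromosome 20 from 48599517 to 48605423, plus strand), and stood at 3.80, 4.35 and 4.56 CPM with the NFE2L2 duplexes and at 9.91, 9.31, 10.3 and 9.55 CPM in the controls. The 3 duplexes gave values close to each other and far from the controls, and the log2FC was −1.20 (SE 0.121, adjusted p = 0.000424). The exact permutation test of this gene, as of each gene without overlap, gave the smallest p that 35 divisions of the 7 libraries allow, 0.0571, and so could not pass 0.05.

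E-cadherin (CDH1, chromosome 16 from 68771195 to 68869440, plus strand) was measured at 237, 223 and 232 CPM with NFE2L2 siRNA and at 193, 145, 112 and 100 CPM in the controls. All NFE2L2 values were higher and close together, while the control values spread over a wide range with duplex 1 above duplex 2. Its log2FC of 0.74 (SE 0.194, adjusted p = 0.0455) did not pass the threshold. It did pass with DESeq2 (adjusted p = 0.00719) and with each control duplex as its own group (adjusted p = 0.00557), and the adjusted p ran from 0.00767 to 0.120 with a library left out. EPCAM, the other epithelial adhesion gene, stood at 6.49, 10.9 and 8.74 CPM against 6.98, 4.90, 3.86 and 4.24 CPM (log2FC 0.80, SE 0.230, adjusted p = 0.0624), with the same order of the control duplexes.

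Of the mesenchymal markers CDH2, VIM and FN1, none passed the test. The matrix genes COL1A1, COL5A1 and SPARC and the fibroblast gene PDGFRA, given above, did pass it. N-cadherin (CDH2) stood at 72.8, 56.7 and 95.7 CPM against 48.1, 49.1, 55.9 and 54.2 CPM (log2FC 0.53, SE 0.157, adjusted p = 0.0672). Vimentin (VIM), an abundant intermediate filament gene of this line, stood at 675, 860 and 915 CPM against 700, 719, 738 and 754 CPM (log2FC 0.17, adjusted p = 0.386), with siRNA-1 below all controls and the other duplexes above them. Fibronectin (FN1) stood at 442, 380 and 407 CPM against 733, 433, 501 and 407 CPM, and the first library of control duplex 1 was the highest of all (log2FC −0.34, SE 0.187, adjusted p = 0.293).

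The other EMT factors had overlapping groups. ZEB1, the most abundant of them, stood at 50.2, 43.7 and 55.1 CPM against 50.7, 48.9, 55.6 and 53.5 CPM (log2FC −0.07, SE 0.104). ZEB2 stood at 3.13, 4.45 and 6.84 CPM against 3.22, 3.95, 4.43 and 4.40 CPM (log2FC 0.27, SE 0.244). SNAI2 and TWIST1 had few reads, 18 to 42 in each library. SNAI2 stood at 0.643, 0.611 and 0.987 CPM against 0.483, 0.511, 0.783 and 0.969 CPM (log2FC 0.13, SE 0.311). TWIST1 stood at 1.06, 1.02 and 0.705 CPM against 0.645, 0.968, 0.838 and 1.05 CPM (log2FC 0.08, SE 0.248). A value well beyond its SE could still miss the threshold, as with COL12A1 (log2FC 0.69, SE 0.132, adjusted p = 0.0125). With the SEs of SNAI2 and TWIST1, the lack of a call does not show a lack of change.

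**Figure D3:**
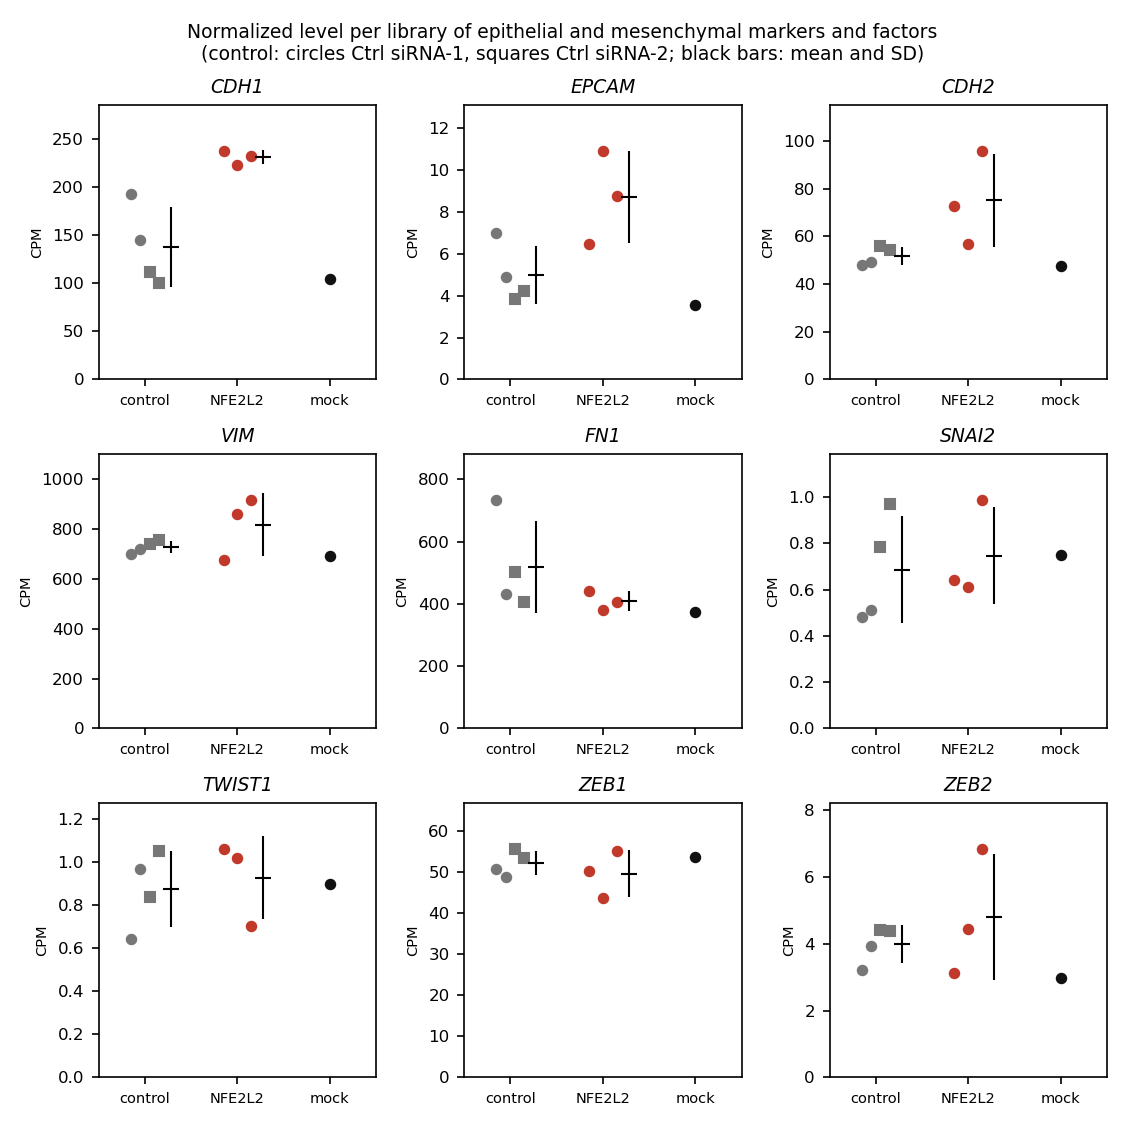
CPM (y axis, from 0) in each library of 8 epithelial and mesenchymal markers and factors and of FN1, by group, with circles for control duplex 1, squares for control duplex 2 and mean and SD as black bars. CDH1 is the gene with 3 close NFE2L2 values (223 to 237 CPM) above a control range of 100 to 193 CPM, whereas ZEB1 and TWIST1 overlap throughout.

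Of the TGF-beta genes, none passed the test, and the 4 log2FC values were all positive with a median of 0.47. The ligand TGFB2 stood at 148, 93.2 and 172 CPM against 91.2 to 95.1 CPM (log2FC 0.55, adjusted p = 0.0779), so that siRNA-2 stayed within the controls. The type I receptor TGFBR1 stood at 235, 197 and 365 CPM against 166 to 192 CPM (0.58, adjusted p = 0.0799), without overlap. TGFBR2, the type II receptor, and the ligand TGFB1 had log2FC values of 0.39 and 0.11.

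None of the 7 protease, inhibitor and crosslinking genes passed the test either, and 4 of their values were positive. TIMP2, an inhibitor of matrix metalloproteinases, came nearest, at 220, 213 and 253 CPM against 133, 149, 175 and 164 CPM (log2FC 0.56, SE 0.113, adjusted p = 0.0164). TIMP1 stood at 104, 21.0 and 90.0 CPM against 70.5 to 86.9 CPM. In the siRNA-2 library it was far below every other library, while siRNA-1 and siRNA-3 exceeded all controls, and the log2FC was −0.10 with a SE of 0.405. The gelatinase MMP2 had a log2FC of 0.64 (adjusted p = 0.0787), and LOXL2, a collagen-crosslinking oxidase, one of 0.11. LOX, MMP14 and MMP1 were low, with control means of 1.78, 1.40 and 0.157 CPM, and their log2FC values had SEs of 0.371, 0.171 and 0.609.

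In 18 of the 49 genes every NFE2L2 library lay above every control, and in 2 every one lay below, 20 in all. Among all tested genes 23.3% had groups that did not overlap, 11.9% with NFE2L2 siRNA above and 11.4% below. The duplexes did not always act alike. For 8 genes (CYR61, ITGAV, ITGB6, VIM, EPCAM, ZEB2, TGFB1 and TGFBR2; 16.3% of the 49) siRNA-2 and siRNA-3 exceeded every control and siRNA-1 did not, against 7.44% of all tested genes. For 6 genes (ITGA2, ITGA3, ITGB4, TGFB2, MMP2 and TIMP1; 12.2%) siRNA-2 was the exception, against 7.19% of all genes. For LAMC1 and ITGB5 (4.08%) siRNA-3 was the exception, against 3.68%.

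**Figure D4:**
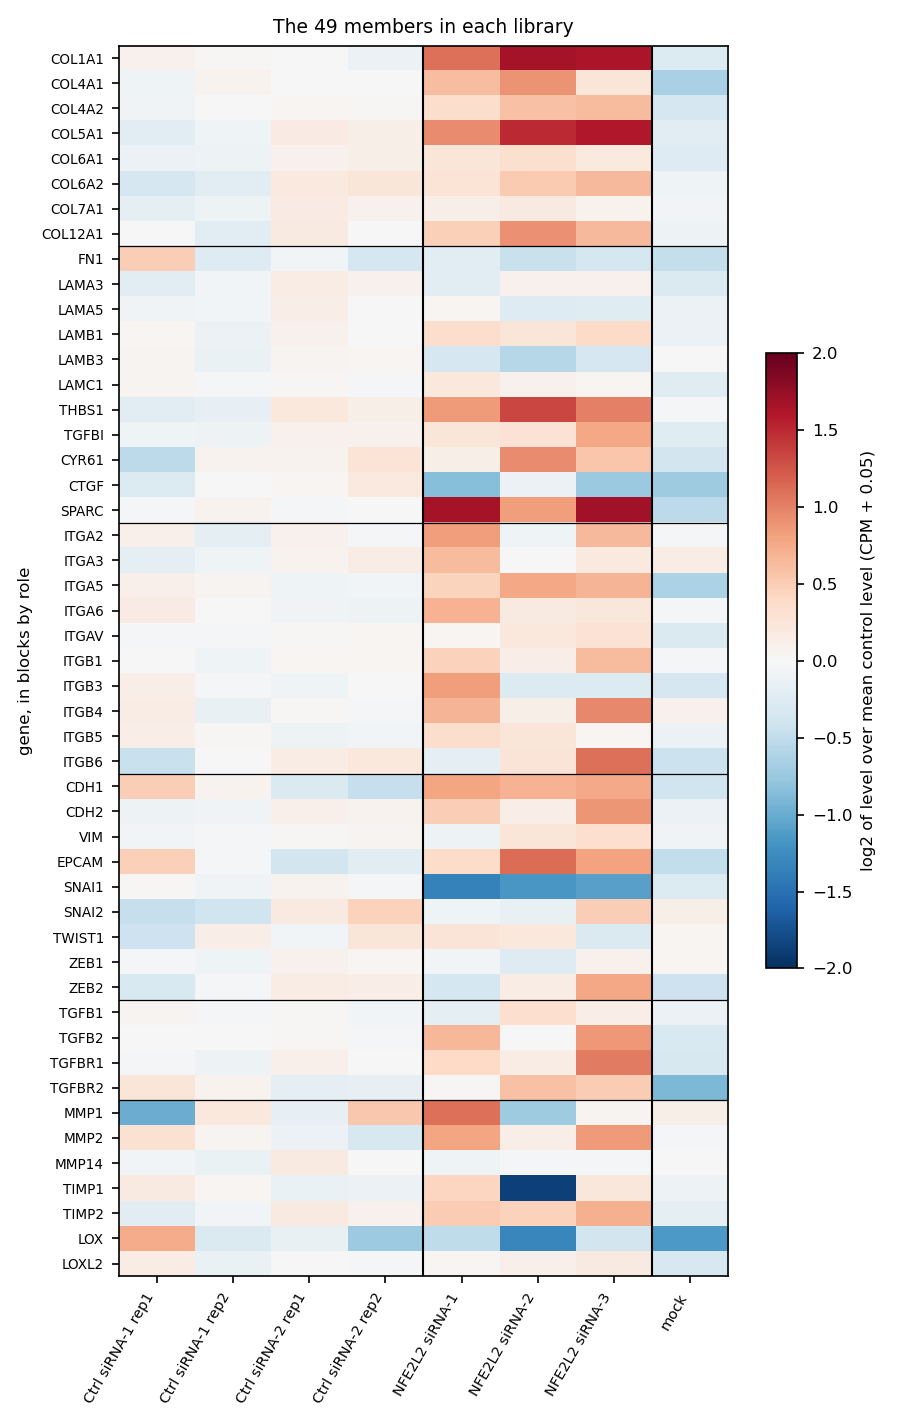
Log2 of the level (CPM + 0.05) of each of the 49 genes in each of the 8 libraries over its mean control level, in colour from −2 (blue) to 2 (red), with genes in blocks by role and lines between the groups. Red is common in the NFE2L2 columns of the collagen block, SNAI1 is blue in all 3, and TIMP1 is dark blue with siRNA-2 alone.

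Between the 2 control duplexes no gene of the 49 passed the threshold in the fit of all 7 libraries, as for all tested genes (0%). At an unadjusted p under 0.05 stood 4 of the 49 genes and 1293 of all tested genes, and DESeq2 called 70 genes, none of them among the 49. A fit of the 4 control libraries alone called 3.07% of all genes, among them CDH1 (duplex 2 minus duplex 1 −0.67, SE 0.112, adjusted p = 0.00601) and THBS1 (0.36, SE 0.0612, adjusted p = 0.00642). The control level of these 2 genes depended on the duplex in that fit. The log2FC of CDH1 was 0.44 against duplex 1 and 1.12 against duplex 2, and that of THBS1 was 1.26 and 0.91. In 43 of the 49 genes the sign was the same against both duplexes.

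The mock library, a single library without a test, lay below all 4 controls for 27 of the 49 genes and above them for none. Among all tested genes the mock library was outside the control range for 45.0% and below it for 22.7%. ITGA5 was at 45.7 CPM in the mock library, SPARC at 10.1 CPM, COL4A2 at 195 CPM and COL1A1 at 3.55 CPM, each below the lowest control. SNAI1 was at 8.08 CPM, below the controls and above the NFE2L2 libraries. COL5A1 (86.1 CPM), THBS1 (97.4 CPM) and CDH1 (104 CPM) fell within the control range.

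The genes differed widely in level. Per kilobase of exon, the control mean was highest for TGFBI at 244 ± 16.7 CPM (SD, n = 4), followed by VIM at 141 ± 4.51 and ITGB1 at 127 ± 4.95. ITGB5 (55.4 ± 3.98) and TIMP1 (53.3 ± 5.35) came next and did not differ beyond their spread. The order depended on the length used, since with the longest transcript ITGB1 (331) came before VIM (273), and ITGA3 (83.4) before ITGB5 (81.3) and TIMP1 (70.4). The lowest was MMP1 at 0.0572 ± 0.0303, below ITGB3 at 0.118 ± 0.00827. COL1A1, whose log2FC of 1.50 was the highest of the 49, ranked 42 in level at 0.476 ± 0.0268 CPM per kilobase.

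The antioxidant response element (ARE), the DNA motif bound by NRF2 with small MAF proteins, has the core TGACNNNGC. Promoter sequences from the RefSeq table of GRCh38.p14 matched 34 of the 49 genes and gave 59 promoters of 300 bases. The core occurred on either strand in 3 of the 59 (5.08%) and in 13.3% of all 35116 promoters. Some of the genes had several promoters, which can overlap, so these are shares of promoters and not of genes. Genes without a promoter to search included COL1A1 and SNAI1, which passed the test, and CDH1. The matches are shown because they are the only ones in the 59 promoters searched. Each is read on the strand that carries it, with its position relative to the start site of its window. All of these genes had further start sites, whose windows held no match.
ITGB1, at −197: TGACGCGGC
ITGB5, at −207: TGACCAGGC
ZEB1, at 24: TGACCGTGC
None of these 3 genes passed the test between the groups. A match is a description of the letters in the window and not a binding site.

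A wider list of 126 other genes of the same roles had 113 tested genes, of which 7 passed the test (6.19%), all of them increased, with a median log2FC of 0.31. TNC, the matricellular glycoprotein tenascin C, stood at 9.08, 7.43 and 7.0 CPM against 1.83, 2.26, 2.92 and 2.99 CPM (log2FC 1.65, SE 0.189, adjusted p = 0.000975). The microfibril gene FBN1 rose from 31.6 ± 4.29 CPM (SD, n = 4) to 59.8 ± 13.3 CPM (SD, n = 3). Among TGF-beta genes, the co-receptor TGFBR3 rose from 49.2 ± 6.21 to 98.8 ± 12.5 CPM and LTBP1, which tethers latent TGF-beta to the matrix, from 53.8 ± 4.57 to 88.6 ± 6.11 CPM. Among the epithelial and EMT genes, P-cadherin (CDH3) rose from 0.353 ± 0.0444 to 1.19 ± 0.238 CPM, with 33 to 59 reads against 11 to 15. Plakoglobin (JUP) of the same role rose from 251 ± 34.1 to 404 ± 38.0 CPM. The matrilysin gene MMP7 rose from 22.3 ± 3.24 to 40.7 ± 7.63 CPM. The adjusted p of these 6 genes lay between 0.00155 for TGFBR3 and 0.00898 for FBN1. TNC and TGFBR3 kept their calls with each of the 7 libraries left out, and the calls of the others were made in 1 to 5 of those fits. None of the 7 calls was made against control duplex 2 alone or with the libraries of each duplex summed. Other integrin alpha and beta chains, further laminins and the keratins were among the genes that did not pass.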

How the data were processed

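The libraries were made by the authors with the TruSeq Stranded Total RNA kit with ribosomal depletion and sequenced on a NextSeq 500. Per the submitters' processing notes and the paper's methods, reads were aligned to hg19 with HISAT 0.1.6. The deposited values are raw read counts per GENCODE v19 gene from HTSeq 0.6.0, with the reverse strand option and no normalization. Unassigned reads were left out, and 60.3% to 65.6% of the listed reads were on genes. A count covers counting error only, and libraries of 1 group differed by more than that, so none was counted as a copy. Chi-square per degree of freedom was 14 and 15.8 between the repeats of a control duplex and 77.8 to 87.9 between NFE2L2 libraries.

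Groups came from the sample labels. A gene was tested if any of the 7 siRNA libraries held 10 or more of its reads. The main test was edgeR 4.0.16 under R 4.3.3 (TMM, glmQLFit and glmQLFTest, two-sided, prior count 0.125, Benjamini-Hochberg adjustment over all tested genes, threshold 0.01), 3 NFE2L2 siRNA against 4 control siRNA libraries. The SE is the size of the log2FC divided by the root of the F value. DESeq2 1.42.0, limma-voom (limma 3.58.1), other scalings, filters, control groups, a threshold of 0.05 and the omission of each library were the alternatives. The script was tested on simulated data first. CPM were scaled over all 8 libraries. Positions and exon lengths came from GENCODE v44 mapped to GRCh37.

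The genes and lists were chosen with earlier results of these data known. Values in every library are given for genes past the threshold, for the EMT genes and for LAMB3 (from the table of isolated values), and group means for genes of the wider list past the threshold, with TNC in every library. COL4A1, COL12A1, TIMP1, TIMP2, TGFBI, ITGB1, TGFB2 and TGFBR1 were added after their values were seen. Of the wider list, 12 genes had too few reads and NOV was not matched to 1 identifier, as was the marker PECAM1.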

Additional observations from a re-analysis of the deposited data

Results flagged for a closer look

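Of the 49 genes, each examined within its 4 control libraries, 1 had a value set apart from the others by more than Dixon's limit at 95% for 4 samples. LAMB3 was at 38.0 CPM in the second library of control duplex 1 and at 42.8 to 43.3 CPM in the other 3, a gap of 0.90 of the whole range. Chance alone sets apart a value in about 1 in 20 such groups, or 2.45 of 49, and 1 was found. The value of this library remained above the 28.1 to 33.1 CPM of the NFE2L2 libraries.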

How the results depend on the processing

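No paired analysis was possible because the labels number the duplexes in the NFE2L2 group and the repeats of each duplex in the control group, which pairs no libraries. Of the 49 genes, 7 also passed with limma-voom, DESeq2 size factors, library size alone, the edgeR default filter and a robust fit, and these were the same 7 genes. DESeq2 gave 12 (10 increased, 2 reduced), with CDH1, COL12A1, COL4A1, LAMB3 and TIMP2 added, 26 of the wider list and 1319 of all genes. A filter of 1 read gave 12 (11 increased), 22 and 1019. A threshold of 0.05 gave 12 (10 increased, 2 reduced), 27 and 1456. Against control duplex 1 alone the counts were 0 (0 increased, 0 reduced), 2 and 117, against duplex 2 alone 1 (CDH1, 1 increased, 0 reduced), 0 and 60, and with the libraries of each duplex summed 0 (0 increased, 0 reduced), 0 and 77. Adjusted p was then 0.0224 and 0.0218 for COL1A1 and 0.0156 and 0.0154 for SNAI1 against duplexes 1 and 2. With the mock library among the controls the counts were 9, 17 and 771. With each duplex as its own group 7 passed, 6 of them shared, with CDH1 in place of COL4A2. Leaving out single libraries gave 3 to 12 of the 49 (2 to 10 increased, 1 to 2 reduced), 2 to 17 of the wider list and 163 to 917 of all genes. The lowest, 3, came without the second library of control duplex 1 (COL1A1, COL5A1 and SNAI1), 4 passed without the first of duplex 2, and the highest, 12, without NFE2L2 siRNA-2. Between the control duplexes, 2 genes passed in the fit of the control libraries alone and 0 in the other fits. No called value changed sign. Where fewer libraries or other genes entered, that is the construction of the alternative, and the cause of the remaining shifts was not tested. With the longest transcript as length, 8 of the 10 highest levels were shared. SNAI2, TWIST1, ITGB3 and the low proteases had few reads, and the part of depth in their SEs was not tested.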

Other observations

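Some genes of the wider list had log2FC values past 1 in size without passing the test. The largest log2FC of that list, 2.40, was that of a collagen gene. Of its 13 tested collagen genes 12 had positive values and 2 were past 1 in size, and none passed. Between the 2 control duplexes the values of these collagen genes ran from −0.28 to 2.35, and none passed there either. The 19 tested integrin and adhesion genes of the wider list went both ways, with 13 positive and 6 negative values down to −0.54, and none passed. The integrin chains ITGA10, ITGA11 and ITGB8 had values of 1.41 (SE 0.270, adjusted p = 0.0127), 1.02 (SE 0.210, adjusted p = 0.0179) and 1.17 (SE 0.235, adjusted p = 0.0159). ITGA11, a collagen receptor chain, stood at 16.9, 15.4 and 15.5 CPM with NFE2L2 siRNA against 5.99, 5.73, 10.8 and 8.97 CPM in the controls, with duplex 1 below duplex 2. The claudin gene CLDN4, a tight junction component, stood at 1.12, 1.37 and 1.90 CPM against 3.55, 3.04, 2.73 and 3.13 CPM (log2FC −1.08, SE 0.206, adjusted p = 0.0125), and the protease gene ADAMTS1 at 0.671, 0.992 and 1.43 CPM against 2.12, 2.34, 2.43 and 2.91 CPM (−1.23, SE 0.252, adjusted p = 0.0172). For TIMP3, as for TIMP1, siRNA-2 gave the lowest value of all 8 libraries, with 1.76, 0.178 and 2.63 CPM against 0.498 to 0.807 CPM. WISP2 stood at 23.6, 27.5 and 87.2 CPM against 18.6 to 21.4 CPM, with siRNA-3 far above the other duplexes (log2FC 1.24, adjusted p = 0.0764). These genes were chosen after their values were seen.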
